A study of Mus musculus with 12 samples.

Results

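The genes described here are the hepatic apolipoproteins Apoa1, Apoa2, Apoa4, Apoa5, Apob, Apoc1, Apoc2, Apoc3 and Apoe, together with Mttp, the microsomal triglyceride transfer protein. They were chosen by symbol, and all 10 of the 10 listed genes were found among the 12086 genes of the liver RNA-seq table. The livers came from male wild-type C57BL/6 mice at postnatal day 84, taken fasted. In each group name the first letter is the dam's diet and the second the offspring's, O for obesogenic and C for control. In OO both dam and offspring received an obesogenic diet with 10% simple carbohydrates and 20% lipids, and with it a sweetened condensed milk that was 55% sugars, 8% fat and 8% protein; the labels spell out the milk for the dams and give the offspring the diet of the same name. In CO the dam received control chow with 7% simple carbohydrates and 3% lipids, and the offspring the same obesogenic diet as in OO. In OC the dam received the obesogenic diet and the offspring control chow, and in CC both received control chow. Dams kept their diet from mating until weaning, litters were set to 6 pups on day 3, and the male offspring moved to their own diet at weaning on day 21. The table held 3 libraries for OO, 2 for CO, 3 for OC and 3 for CC, where the labels give 3 samples per group. Libraries are written as group and number, such as OO.2, and the number pairs nothing across groups. The labels do not say which mice shared a litter, so p-values measure only the spread between these libraries.

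Apolipoproteins are the protein coat of the particles that carry lipid in blood. In the hepatocyte, Mttp loads lipid onto apoB as it enters the endoplasmic reticulum, and the growing particle leaves the cell as very low density lipoprotein (VLDL). ApoA-I and apoA-II are the main proteins of high density lipoprotein (HDL), and the smaller exchangeable apolipoproteins move between particles and set how fast lipoprotein lipase and the hepatic receptors clear them. Apoa1, Apoc3, Apoa4 and Apoa5, lie next to one another on chromosome 9, and Apoc2, Apoc1 and Apoe share a second cluster on chromosome 7.

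The promoter windows of the 3 members with the smallest p in comparisons of diets, and that of Apob, the scaffold of VLDL, are shown so that these genes can be placed in the genome. Each runs from 250 bases before to 50 bases after the annotated start and is taken from RefSeq on GRCm38.p6, in the direction of transcription. Capitals mark a match to 1 of 5 motifs searched on both strands. Apoa5 is at chr9:46268358-46268657 on the plus strand, Apoa4 at chr9:46240594-46240893 on the plus strand, Apoc2 at chr7:19677892-19678191 on the minus strand and Apob at chr12:7977427-7977726 on the plus strand.
Apoa5: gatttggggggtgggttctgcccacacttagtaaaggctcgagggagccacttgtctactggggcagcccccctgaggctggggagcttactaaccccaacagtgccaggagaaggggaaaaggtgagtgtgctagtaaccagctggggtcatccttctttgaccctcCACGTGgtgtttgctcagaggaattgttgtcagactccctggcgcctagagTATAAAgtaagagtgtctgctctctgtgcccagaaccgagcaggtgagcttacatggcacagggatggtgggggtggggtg
Apoa4: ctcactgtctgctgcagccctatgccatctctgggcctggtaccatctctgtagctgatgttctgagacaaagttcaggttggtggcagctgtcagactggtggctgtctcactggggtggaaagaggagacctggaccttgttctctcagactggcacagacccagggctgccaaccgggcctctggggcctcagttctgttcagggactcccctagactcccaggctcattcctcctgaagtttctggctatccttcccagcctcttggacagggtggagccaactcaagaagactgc
Apoc2: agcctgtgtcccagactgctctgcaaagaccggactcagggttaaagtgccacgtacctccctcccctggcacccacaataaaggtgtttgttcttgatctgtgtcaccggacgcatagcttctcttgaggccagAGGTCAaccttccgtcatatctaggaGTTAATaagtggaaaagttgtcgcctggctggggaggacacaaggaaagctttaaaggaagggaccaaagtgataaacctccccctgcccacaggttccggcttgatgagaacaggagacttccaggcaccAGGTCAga
Apob: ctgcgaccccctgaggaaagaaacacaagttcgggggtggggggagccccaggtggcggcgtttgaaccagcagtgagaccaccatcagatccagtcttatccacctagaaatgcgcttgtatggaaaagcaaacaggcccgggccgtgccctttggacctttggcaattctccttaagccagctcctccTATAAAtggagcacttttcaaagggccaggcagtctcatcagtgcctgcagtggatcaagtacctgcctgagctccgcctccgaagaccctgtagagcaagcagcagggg

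In the Apoa5 window shown, an E-box (CACGTG) began at position -82 and a TATA box (TATAAA) at position -31, counted from its start site. Apoa5 had 2 annotated windows, and from the other start the same E-box lay at -107 and the same TATA box at -56. In the Apoc2 window a nuclear receptor half-site (AGGTCA) began at positions -115 and 42, and an HNF1 half-site (GTTAAT) at position -89. The Apob window had a TATA box at position -60, and the Apoa4 window matched none of the 5 motifs. No matches overlapped in these 4 windows. Among 32851 promoter windows of the same length, 7.15% held the E-box, 13.6% the TATA box, 16.3% the nuclear receptor half-site and 7.10% the HNF1 half-site. The HNF4 core (CAAAGTCCA), the fifth motif, was in 0.475% of them and in none of the 12 windows that RefSeq gave for 8 members. No window was used for Apoc1 or Apoc3. These matches describe letters and not binding.

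The deposited values are reads per gene scaled to a common library size, called scaled counts here; they sum to between 929699 and 1099404 per library. The depth recovered from the value of 1 read was 3976158 reads in OO.1 to 27837609 in OO.0, so that 3 reads are worth 0.1 to 0.829 scaled counts, far below every member. Of 8 listed hepatocyte markers 6 were measured, and Alb and Tf were not found. The 6 summed to 25920 to 30720 scaled counts in OO, 37809 to 38248 in CO, 26524 to 35548 in OC and 32203 to 36011 in CC. Among them Fgb, which is also on the acute phase list, stood at 6143 in CO.0 and 12713 in CO.1, against 3881 to 4881 in CC. In CO against CC, 4 of the 6 log2 differences lay below 0 and 2 above (median -0.07). Some libraries stood apart in genes of other tissues or states. The 13 exocrine pancreas genes measured summed to 6481 in OC.0 and 4109 in CO.1, and to between 7.46 and 963 elsewhere. The sum of the 17 measured acute phase genes was 87886 in CO.1 and 61709 in OC.1, and between 19213 and 31812 elsewhere. The 11 macrophage and Kupffer cell markers summed to 659 to 702 in OO, 575 to 640 in CO, 484 to 750 in OC and 421 to 555 in CC. By limma 0 passed in any comparison, with 2 at an unadjusted p under 0.05 in the offspring diet average, and all 11 differences lay above 0 for offspring diet (median 0.30) and for dam diet (median 0.19). The part of these cells in the results was not tested. Members' values are also given without these libraries where that changed a call or a direction. The 10 members together took 4.94% (OO.1) to 6.13% (OO.0) of all scaled counts.

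Of the 10 members, Apoa5 alone passed the test, and it was lower in mice fed the obesogenic diet. Averaged over both dam diets, its level in obesogenic-fed offspring was 1.41-fold below that of control-fed offspring. The other 9 members did not pass in any of the comparisons. Each value was compared as log2(scaled count + 0.5) in limma's moderated test across all 12086 genes, with a Benjamini-Hochberg adjusted p below 0.05 as the threshold. In the average over dams this test called 3.96% of all genes (2.24% higher and 1.72% lower), and the 1 member called of 10 is read against the 1.72% of all genes that were lower. The members were chosen with earlier results of these data known, so this is no test of the set. The median log2 difference of the 10 members was -0.08, with 4 above and 6 below 0.

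Apoa5 encodes apoA-V, a liver-made apolipoprotein of low plasma abundance that enhances the hydrolysis of plasma triglyceride by lipoprotein lipase. Its scaled counts were 1316, 1214 and 1141 in OO.0 to OO.2 and 1280 and 1343 in CO.0 and CO.1. They were 1555, 1590 and 1752 in OC.0 to OC.2 and 1859, 1934 and 2101 in CC.0 to CC.2. All 5 obesogenic-fed libraries lay below all 6 control-fed ones. Among all genes, 3.84% separated the 5 libraries from the 6 without overlap, and Apoa5 was the only member to do so. The difference averaged over dams was -0.50 on the log2 scale (SE 0.11, 95% interval -0.74 to -0.26, limma adjusted p = 0.028). It was -0.42 in OO against OC (SE 0.14, adjusted p = 0.453) and -0.58 in CO against CC (SE 0.16, adjusted p = 0.0999), neither past the threshold. The change of the offspring diet difference with dam diet was 0.17 (95% interval -0.31 to 0.64, adjusted p = 0.964). The averaged call did not hold in 7 of the 11 fits that left out 1 library, those without CC.0, CC.2, CO.0, CO.1, OC.2, OO.1 or OO.2, where the adjusted p lay between 0.0531 and 0.0814 and the difference, over all 11, between -0.53 and -0.47. Without both OC.0 and CO.1 the difference was -0.46 and its adjusted p 0.102. In whole liver, fewer cells of a type and less RNA per cell cannot be told apart.

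**Figure D1:**
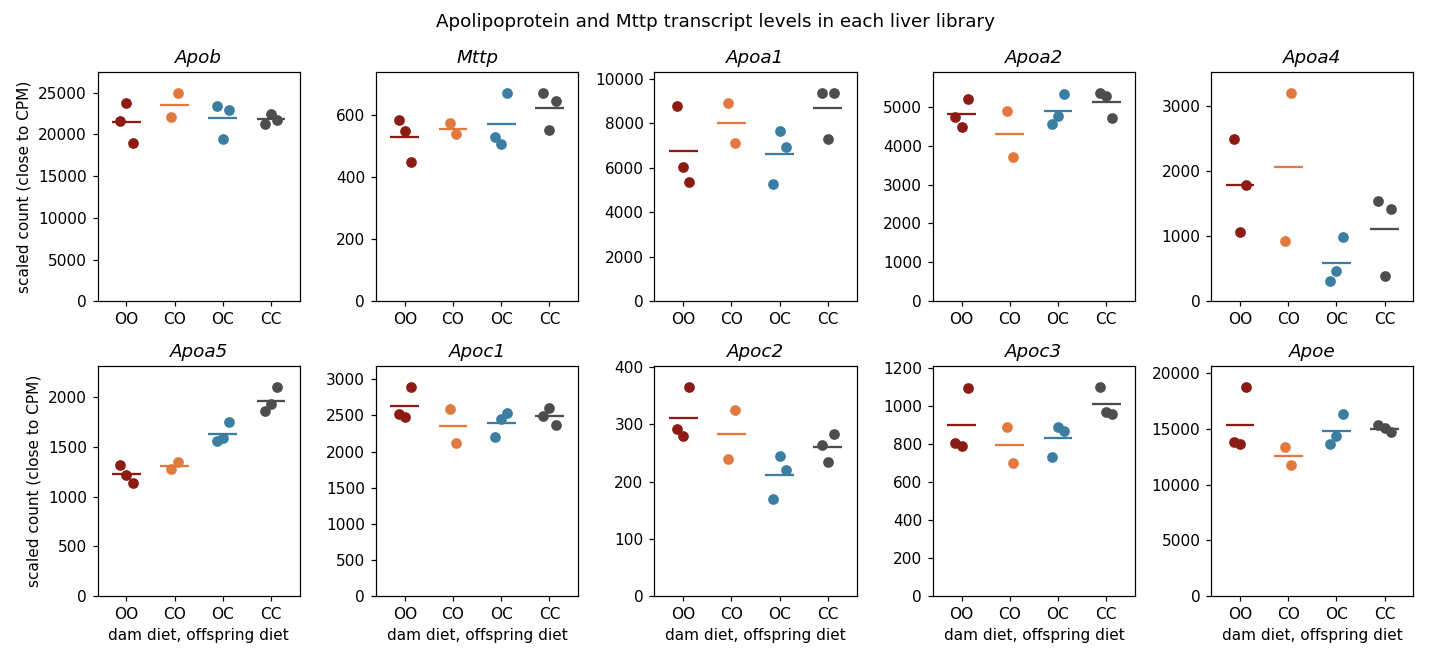
Scaled counts of the 10 members in each of the 11 libraries, 1 panel per gene and 1 column per group (OO, CO, OC, CC), with a point per library and a line at the group mean; every vertical axis starts at 0. Apoa5 lies at 1141 to 1343 in OO and CO and at 1555 to 2101 in OC and CC, while the other 9 members overlap between obesogenic-fed and control-fed offspring.

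Apoa4 was the most variable member, at 10.1-fold between its highest library (CO.1) and its lowest (OC.0). It encodes apoA-IV, a lipid-binding apolipoprotein of chylomicrons and HDL that mouse liver makes alongside the intestine. Its scaled counts were 2496, 1066 and 1784 in OO, 923 and 3204 in CO, 318, 466 and 984 in OC, and 1540, 396 and 1414 in CC. Every OO library lay above every OC library, whereas CO and CC overlapped. The OO against OC difference was 1.67 (95% interval 0.35 to 3.00, unadjusted p = 0.0175, limma adjusted p = 0.494). The CO against CC difference was 0.85 (95% interval -0.62 to 2.33, adjusted p = 0.556) and turned to -0.044 without CO.1. Averaged over dams it was 1.26 (SE 0.45, adjusted p = 0.151), which missed the threshold; it was 0.81 without CO.1 and 0.63 without both OC.0 and CO.1. The test draws each gene's residual SD toward a trend over all genes. For Apoa4 it used 0.74, against 0.94 from the Apoa4 values alone, which narrows these intervals. Of 9 listed enterocyte markers, Fabp2 and Treh were measured, and the other 7 were not found among the gene symbols. Their sum was 136 to 192 scaled counts in OO, 165 to 172 in CO, 62.0 to 125 in OC and 93.1 to 127 in CC, nearly all of it Fabp2, a fatty acid binding protein that liver also expresses. Fabp2 was itself higher in obesogenic-fed offspring, by 0.79 averaged over dams (adjusted p = 0.028), a call that was lost in 7 of 11 fits leaving out 1 library (CC.0, CC.1, CO.0, CO.1, OC.0, OC.1 or OO.0, adjusted p up to 0.0883). Its part in the Apoa4 values was not tested.

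Apoc2 encodes apoC-II, the cofactor that lipoprotein lipase requires. It had 291, 279 and 365 scaled counts in OO, 240 and 325 in CO, 169, 245 and 221 in OC, and 264, 233 and 283 in CC. OO lay wholly above OC, and CO overlapped CC. The difference was 0.57 in OO against OC (95% interval 0.19 to 0.94, unadjusted p = 0.00668, limma adjusted p = 0.364) and 0.11 in CO against CC (95% interval -0.31 to 0.53, adjusted p = 0.825). Averaged over dams it was 0.34 (SE 0.13, adjusted p = 0.176), short of the threshold, and 0.15 without both OC.0 and CO.1.

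The partner genes of VLDL assembly, Apob and Mttp, showed no difference past the threshold. Apob had 21587, 23746 and 18980 scaled counts in OO, 22083 and 24982 in CO, 23341, 19407 and 22954 in OC, and 21268, 22432 and 21775 in CC. Its groups overlapped, its 11 libraries spanned 1.32-fold, and its averaged offspring diet difference was 0.04 (95% interval -0.54 to 0.61). Mttp had 587, 551 and 449 in OO, 576 and 539 in CO, 531, 509 and 673 in OC, and 673, 554 and 646 in CC. Its averaged difference was -0.13 (95% interval -0.39 to 0.12, adjusted p = 0.577). These intervals allow a change in either direction, and for Apob the interval is wide because the test's moderated residual SD, which mixes the gene's own spread with a trend over all genes, was 0.43, against 0.13 from the Apob values alone.

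The HDL proteins Apoa1 and Apoa2 also stayed short of the threshold. Apoa1, whose product activates cholesterol esterification on HDL, had 8792, 6053 and 5374 scaled counts in OO, 8894 and 7121 in CO, 5263, 7664 and 6933 in OC, and 9370, 7290 and 9359 in CC. Apoa2 had 4730, 4480 and 5204 in OO, 4879 and 3716 in CO, 4566, 4761 and 5332 in OC, and 5357, 5266 and 4707 in CC. The groups overlapped in every comparison of either gene. The averaged offspring diet difference was -0.05 for Apoa1 (95% interval -0.52 to 0.42) and -0.14 for Apoa2 (95% interval -0.49 to 0.21).

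Apoc1, Apoc3 and Apoe encode exchangeable apolipoproteins; apoC-III slows triglyceride clearance and apoE is the ligand for hepatic uptake of remnants. Apoe had 13826, 13606 and 18741 scaled counts in OO, 13360 and 11755 in CO, 13613, 14399 and 16340 in OC, and 15317, 15077 and 14703 in CC. Apoc3 had 806, 789 and 1095 in OO, 891 and 697 in CO, 733, 889 and 865 in OC, and 1098, 968 and 958 in CC. Both CO libraries lay below all 3 CC libraries for both genes, while OO overlapped OC. Their CO against CC differences were -0.26 for Apoe (95% interval -1.02 to 0.49) and -0.35 for Apoc3 (95% interval -0.77 to 0.06, adjusted p = 0.375). Apoc1 lay between 2116 (CO.1) and 2892 (OO.2), with an averaged difference of 0.02 (95% interval -0.26 to 0.31).

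Read pair by pair, the groups of CO and CC did not overlap for 3 of 10 members (Apoa5, Apoc3 and Apoe, all lower in CO), where 35% of all genes did not overlap. Those of OO and OC did not overlap for 3 of 10 (Apoa4 and Apoc2 higher, Apoa5 lower in OO), against 12.7% of all genes. limma called 0 members in CO against CC, beside 1.79% of all genes (1.01% higher and 0.778% lower), with 1 member at an unadjusted p under 0.05, as were 16.8% of all genes. It called 0 in OO against OC, beside 0.165%, with 3 members at an unadjusted p under 0.05, as were 8.01% of all genes. In both, edgeR called 0 members and DESeq2 called 1, Apoa5, with DESeq2 adjusted p = 0.000259 in CO against CC and 0.014 in OO against OC. Of all 12086 genes, DESeq2 called 456 in CO against CC and 106 in OO against OC, more than limma's 216 and 20. edgeR called 156 and 23.

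**Figure D2:**
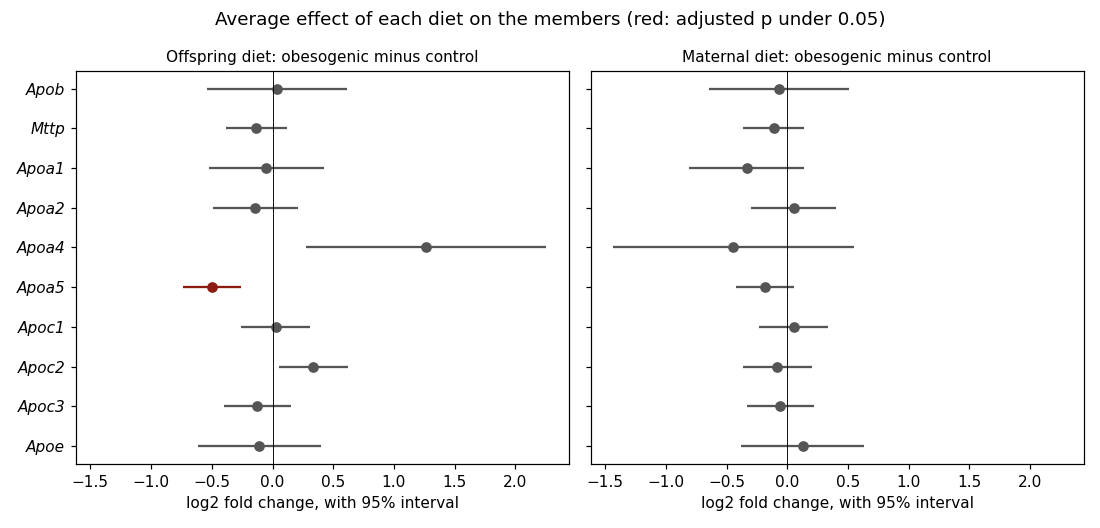
Log2 difference of each of the 10 members for offspring diet averaged over dams (left) and dam diet averaged over offspring diets (right), obesogenic minus control, with points for the limma estimates and lines for their 95% intervals; red marks an adjusted p under 0.05. Apoa5 at -0.50 on the left is the only red point, the left intervals of Apoa4 and Apoc2 also lie above 0 before adjustment, and all 10 intervals on the right cross 0.

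For the diet of the dam, no member passed the test. In OC against CC, limma called 0% of all genes and 0 members, and edgeR and DESeq2 also called 0 members; none of the 10 had an unadjusted p under 0.05. Of the 10 log2 differences 9 were below 0, with a median of -0.20, against a median over all genes near 0. Apoa5 was 1632 ± 105 scaled counts in OC and 1965 ± 124 in CC (SD, n = 3 each) and did not overlap between them, nor did Apoc3, at 829 ± 84.2 in OC and 1008 ± 78.0 in CC. Among all genes, 11.5% did not overlap between OC and CC. The differences were -0.27 for Apoa5 (95% interval -0.58 to 0.05, adjusted p = 0.923) and -0.28 for Apoc3 (95% interval -0.65 to 0.09, adjusted p = 0.923). Apoa4, Apoa1 and Apoc2 had lower differences than these, of -0.85 (95% interval -2.18 to 0.47), -0.40 (95% interval -1.03 to 0.23) and -0.31 (95% interval -0.69 to 0.06), and all 3 overlapped between groups. That of Apoa4 ranged from -1.49 without CC.1 to -0.49 without OC.0.

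In OO against CO the test called 0 members beside 0.0414% of all genes, with 5 of the 10 differences above 0 and 5 below. Apoe did not overlap, at 15391 ± 2903 scaled counts in OO (SD, n = 3) and 12558 ± 1135 in CO (SD, n = 2), as 20% of all genes did not, and its difference was 0.28 (95% interval -0.47 to 1.03), or 0.13 without OO.2. Averaged over offspring diets, dam diet called 0 members beside 0.0331% of all genes. No member separated the 6 offspring libraries of obesogenic-fed dams from the 5 of control-fed dams, as 0.381% of all genes did. The interaction of dam and offspring diet called 0 members, beside 0.0331% of all genes. edgeR and DESeq2 called 0 members in these comparisons too, and none had an unadjusted p under 0.05.

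Between libraries of 1 group, some pairs of members varied together, and no test of this was run. After subtracting group means, and over 11 libraries, Apoa2 and Apoc1 correlated at r = 0.93, Apoc3 and Apoe at 0.89, and Apoc1 and Apoc3 at 0.87. These are the highest of all pairs of members, and other pairs lay near 0, such as Apoa4 with Apob (0.0009). Subtracting 4 group means leaves 7 free values behind the 11 deviations, and the 2 deviations of CO mirror each other. The next values are read against the pairs Apoa2, Apoc1, Apoc3 and Apoe form. Apob ran opposite to these 4 members, at -0.84 with Apoc3 and -0.61 with Apoe. The members that varied together have transcripts of 518 to 1408 bases, and that of Apob has 13934 bases. Apoa1 (1035 bases) and Apoc2 (727 bases) are as short but did not vary closely with them: Apoa1 correlated at 0.08 with Apoc1 and -0.17 with Apoe, and Apoc2 at 0.09 with Apoc1 and 0.38 with Apoe. The 4 of them (Apoa2, Apoc1, Apoc3 and Apoe) lay on average 0.26 above their mean over libraries in OO.2 and 0.31 below it in CO.1, on the log2 scale, while Apob lay 0.21 below in OO.2 and 0.18 above in CO.1. Genes with transcripts under 1000 bases (440) and over 5000 bases (2162) were compared in the same way. The median of the short minus that of the long ones was -0.15 to 0.15 in OO, -0.14 to 0.01 in CO, -0.29 to 0.21 in OC and 0.05 to 0.10 in CC. It was 0.15 in OO.2 and -0.14 in CO.1, the libraries where the 4 members shifted most. It was largest in size in OC.0 (-0.29) and OC.1 (0.21), where the 4 members lay on average at -0.15 and -0.006. The part of transcript length in the members' values was not tested. These are descriptions of libraries that share preparation and scaling. Apoa5 deviated from its own group mean by -0.10 in OO.2 and 0.03 in CO.1.

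**Figure D3:**
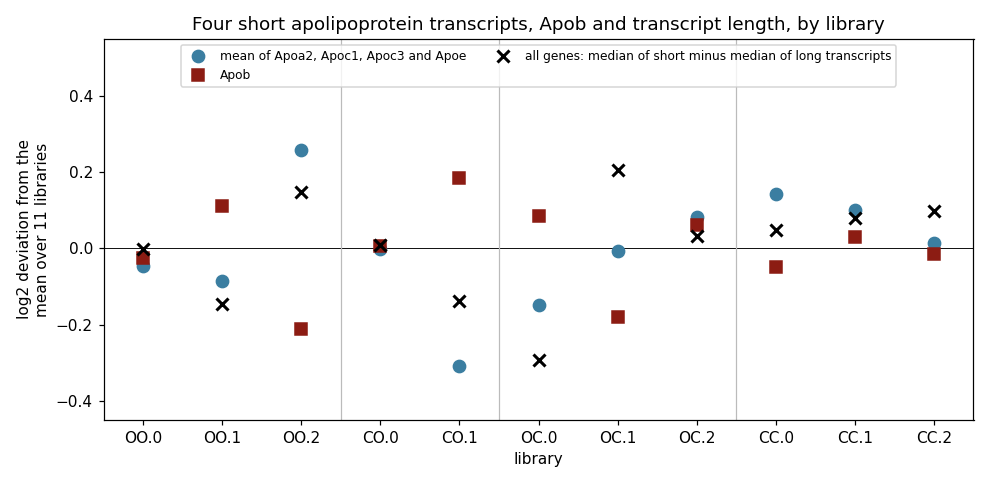
Log2 deviation from the mean over 11 libraries (vertical axis) in each library (horizontal axis), for the mean of Apoa2, Apoc1, Apoc3 and Apoe (circles), for Apob (squares) and for the median of all short minus all long transcripts (crosses). In OO.2 the circle lies at 0.26, the cross at 0.15 and the square at -0.21, in CO.1 they lie at -0.31, -0.14 and 0.18, and in OC.1 the cross is at 0.21 with the circle near 0.

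Per kilobase of transcript, a rough measure for setting different genes side by side, Apoe was highest in each group, followed by Apoa2, Apoa1 and Apoc1 in that order. They stood at 10931 ± 2062, 9275 ± 710, 6512 ± 1748 and 4949 ± 423 scaled counts per kilobase in OO (SD, n = 3). In CC they stood at 10676 ± 220, 9865 ± 679, 8379 ± 1157 and 4684 ± 224 (SD, n = 3). Apoe and Apoa2 lay within their spread of each other in OO and in CO. Apoc3 and Apob followed, at 1705 ± 328 and 1539 ± 171 in OO, which do not differ beyond their spread, and at 1916 ± 148 and 1566 ± 41.9 in CC. Apoa4 and Apoa5 came next, and their order was not settled in CO or CC. Apoa4 had 982 ± 394 in OO, 1137 ± 889 in CO, 325 ± 193 in OC and 615 ± 345 in CC, and Apoa5 had 487 ± 34.9, 522 ± 17.6, 649 ± 41.9 and 781 ± 49.2 in the same groups. In CO and CC the means lay within the spread of Apoa4. By group mean Apoc2 came ninth and Mttp last in every group, at 429 ± 64.0 and 133 ± 18.01 in OO and 358 ± 34.6 and 158 ± 15.8 in CC. Apoc2 had 389 ± 83.1 in CO and 291 ± 53.4 in OC. In CO, OC and CC its mean lay within the spread of Apoa4, so the order of Apoc2 and Apoa4 was not settled there. Lengths are those of the main GENCODE M21 transcript. The reads were aligned to mm8 and counted with an annotation that is not named, so the order between genes is approximate.

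The genes most like the 3 members with the smallest p were ranked over 11 libraries among 9317 genes with a mean of at least 5 scaled counts. Apoa5 was followed most closely by Agtr1a (r = 0.95), an angiotensin receptor, and by Rps6 and Fau (both 0.93), which encode ribosomal proteins. Without CC.2 and OO.2, the 2 libraries furthest from the Apoa5 median, these were 0.91, 0.90 and 0.89. The member most like Apoa5 was Mttp (0.64, and 0.38 without CC.2 and OO.2). Agtr1a had 59.6, 52.5 and 47.5 scaled counts in OO and 48.0 and 49.99 in CO, against 67.8, 64.2 and 64.9 in OC and 77.5, 79.8 and 86.5 in CC, separated by offspring diet as Apoa5 was. Apoc2 was most like Acsf3 (0.97), Coq4 (0.93) and S100a10 (0.93), which became 0.90, 0.75 and 0.73 without OC.0 and OO.2. Apoa4 was most like Tlr12 (0.92), Lamb3 (0.90) and Pcx (0.90), which became 0.91, 0.90 and 0.82 without CO.1 and OC.0. Apoa4 and Apoc2 were each other's most like member (0.81). That value was 0.80 without OC.0 and OO.2 and 0.66 without CO.1 and OC.0. These correlations pool 4 diet groups and were picked as the highest of many.

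Genes around the apolipoproteins were then read as lists by role. The lists were chosen with earlier results of these data known, so setting a list's count beside the share of all genes tests nothing. In the machinery of VLDL assembly and export from the endoplasmic reticulum, 1 of 30 genes passed, Tm6sf2, which was lower in obesogenic-fed mice; 3.96% of all genes passed in the average over dams, so the count is near the background. Tm6sf2 encodes a membrane protein needed to load lipid onto VLDL, and it had 11.2, 16.9 and 20.1 scaled counts in OO and 10.3 and 12.9 in CO, against 22.7, 26.9 and 26.1 in OC and 30.0, 26.4 and 26.0 in CC. All obesogenic-fed libraries lay below all control-fed ones. The difference averaged over dams was -0.94 (SE 0.14, limma adjusted p = 0.00521), and this call held in all 11 fits that left out 1 library. It was -0.67 in OO against OC (adjusted p = 0.314) and -1.21 in CO against CC (adjusted p = 0.0227). The CO against CC call was lost without CC.0, CC.2, CO.0 or CO.1, with an adjusted p of up to 0.091. The next gene by p was Sec24c, a subunit of the coat of export vesicles, at 0.37 in CO against CC (adjusted p = 0.165). The median of the 30 averaged differences was -0.02, with 14 above 0.

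Of the 16 genes that supply triglyceride and phospholipid to VLDL, 0 passed by limma in any comparison, and 6 had an unadjusted p under 0.05 in the offspring diet average, as had 19.4% of all genes. The smallest p between 2 groups belonged to Tm6sf1, a relative of Tm6sf2, at 0.87 in CO against CC (adjusted p = 0.0789), and Pcyt1a, an enzyme of phosphatidylcholine synthesis, at -0.47 (adjusted p = 0.153). Of the 4 genes for editing of Apob mRNA 0 passed, and 2 had an unadjusted p under 0.05 in that average, beside the same 19.4%. The smallest p between 2 groups belonged to the deaminase Apobec1, with 0.72 in CO against CC (adjusted p = 0.157), and its cofactor Rbm47, with 0.52 (adjusted p = 0.169).

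Among 14 other apolipoprotein genes, 3 passed as higher in obesogenic-fed mice and none as lower, beside 2.24% and 1.72% of all genes. With the list chosen after earlier results were known, this count is a description only. Saa4 encodes a serum amyloid A protein of HDL. It had 164, 201 and 224 scaled counts in OO and 222 and 480 in CO, against 97.5, 199 and 90.3 in OC and 57.5, 93.9 and 69.8 in CC. It rose by 1.43 averaged over dams (adjusted p = 0.0104) and by 2.17 in CO against CC (adjusted p = 0.019). Saa4 was highest in CO.1 and, among control-fed libraries, in OC.1, the libraries with the highest acute phase sums, whose part in its values was not tested. Without OC.0 and CO.1 the averaged adjusted p was 0.0892, and the CO against CC call was lost without CC.0, CC.2 or CO.1, with an adjusted p of up to 0.133. Apol9a and Apol9b, near-identical interferon-inducible genes of the apolipoprotein L family whose reads the counting could have split, rose by 1.55 (adjusted p = 0.028) and 0.999 (adjusted p = 0.037). For both, the call was lost in 7 of 11 fits leaving out 1 library (CC.0, CC.2, CO.0, OC.0, OC.2, OO.0 or OO.2), with adjusted p up to 0.0831 for Apol9a and 0.105 for Apol9b. The list's median averaged difference was 0.18. Apoh, a phospholipid-binding plasma protein named after its values were seen, had 1541, 1619 and 1724 in OO and 1735 and 1450 in CO, against 1828, 2037 and 1972 in OC and 2075, 2060 and 1938 in CC. Its groups did not overlap between offspring diets, and its averaged difference of -0.30 missed the threshold (adjusted p = 0.171).

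Of 19 genes that remodel lipoproteins in plasma, 1 passed as higher and 1 as lower in obesogenic-fed mice, beside 2.24% and 1.72% of all genes. Abca1, the exporter that hands cholesterol to apoA-I, had 438, 369 and 432 scaled counts in OO and 478 and 676 in CO, against 330, 297 and 244 in OC and 339, 310 and 337 in CC. It rose by 0.65 averaged over dams (SE 0.12, adjusted p = 0.0115), and this call held in all 11 fits that left out 1 library but not without both OC.1 and CO.1 (adjusted p = 0.061). The CO against CC difference was 0.79 (adjusted p = 0.0464), a call kept in 1 of the 11 such fits, that without CO.0; the adjusted p reached 0.279. Pltp, which transfers phospholipid between particles, fell by 0.58 averaged over dams (adjusted p = 0.0406). That call was kept in 2 of the 11 fits, those without OC.1 and without OO.2, with an adjusted p of up to 0.113. Between 2 groups, Gpihbp1, which anchors lipoprotein lipase to capillaries, had the smallest p of the genes not called, with 0.52 in OO against CO (unadjusted p = 0.00255, adjusted p = 0.758).

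Of 15 receptor and clearance genes, 1 passed, beside 3.96% of all genes in the average over dams and 1.79% in CO against CC. Sdc1, the heparan sulfate proteoglycan that captures remnants on hepatocytes, had 201, 183 and 212 scaled counts in OO and 155 and 219 in CO, against 274, 232 and 253 in OC and 426, 278 and 315 in CC. It fell by 0.60 averaged over dams (adjusted p = 0.0259), a call that was lost without CC.2, CO.0, OC.0, OC.2, OO.0 or OO.1, with an adjusted p of up to 0.0759. In CO against CC it fell by 0.86 (adjusted p = 0.048), which was kept in 1 of the 11 fits, that without CC.1, with an adjusted p of up to 0.201. The receptor Lrp1 was next, at 1.02 in CO against CC (adjusted p = 0.106).

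The list of transcription factors and coactivators of apolipoprotein genes had 4 of 30 members past the threshold as higher in obesogenic-fed mice and none as lower, beside 2.24% and 1.72% of all genes. Like the others, this list was chosen with earlier results known, so its count is a description and no test. Onecut1, a hepatic homeodomain factor, had 15.2, 30.7 and 24.4 scaled counts in OO and 66.5 and 51.0 in CO, against 5.70, 14.6 and 7.68 in OC and 5.38, 13.02 and 3.34 in CC. It rose by 2.23 averaged over dams (adjusted p = 0.00454) and by 3.13 in CO against CC (adjusted p = 0.0165). Xbp1, a factor of the unfolded protein response and of hepatic lipid synthesis, had 246, 256 and 190 in OO and 401 and 419 in CO, against 157, 233 and 195 in OC and 152, 208 and 171 in CC. OO and OC overlapped. Xbp1 rose by 0.73 averaged over dams (adjusted p = 0.011) and by 1.22 in CO against CC (adjusted p = 0.0167), with 0.25 in OO against OC (adjusted p = 0.789) and an interaction of -0.97 that missed the threshold (unadjusted p = 0.00279, adjusted p = 0.936).

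The averaged calls of Onecut1 and Xbp1 held in all 11 fits that left out 1 library, while that of Xbp1 had an adjusted p of 0.0761 without both OC.0 and CO.1. Their CO against CC calls were lost without CC.0, CC.2 or CO.1, and for Onecut1 also without CO.0, with an adjusted p of up to 0.0884 for Xbp1 and 0.0711 for Onecut1. Mlxipl, the carbohydrate-responsive factor ChREBP, rose by 0.57 averaged over dams (adjusted p = 0.033) and by 0.86 in CO against CC (adjusted p = 0.048). Cebpb rose by 0.52 averaged over dams (adjusted p = 0.0433). The averaged Mlxipl call was kept in 3 of the 11 fits, those without OC.2, OO.2 and CC.1, with an adjusted p of up to 0.0875. Its CO against CC call was kept in 4, those without CC.1, OC.1, OO.1 and OO.2, with an adjusted p of up to 0.170. The averaged Cebpb call was kept in 4, those without CC.0, OC.2, OO.1 and OO.2, with an adjusted p of up to 0.132. Hnf4a and Ppara, known regulators of apolipoprotein genes named here after their values were seen, did not pass: Hnf4a stood at -0.08 averaged over dams (95% interval -0.30 to 0.15), and Ppara at 0.39 (95% interval 0.06 to 0.72, adjusted p = 0.176). No gene of the 7 lists passed in OO against OC, OC against CC, OO against CO, the dam diet average or the interaction.

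**Figure D4:**
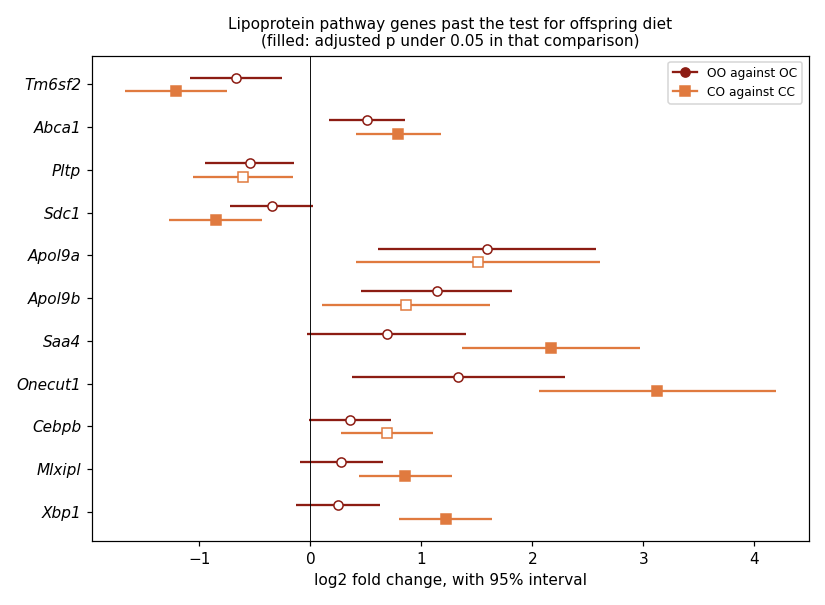
Log2 differences of the 11 list genes past the threshold for offspring diet, in OO against OC (circles) and in CO against CC (squares), with 95% intervals as lines and filled symbols for a limma adjusted p under 0.05 in that comparison. Both symbols of a gene lie on the same side of 0. The choice of genes favoured this, because the average of the plotted differences had to pass, so it is no separate test of agreement between dam diets. Of the squares 7 are filled, among them Tm6sf2 at -1.21 and Onecut1 at 3.13, and no circle is.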

How the data were processed

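Liver mRNA libraries (TruSeq) were aligned with Bowtie 1.2.3 to mm8, per the submitters' processing notes; no source used here names the counter, annotation, strand setting or scaling. The authors deposited 1 table of scaled counts (a signal; the file calls them CPM, but column sums differ) for 12086 genes in 11 libraries, whose columns name the group and not the sample. Of its IDs, 11965 matched a symbol. In each library 95.7% to 97.3% of values were whole multiples of 1 read (tolerance 0.01), and the recovered reads entered the count tests.

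Values were tested as log2(value + 0.5) with limma 3.58.1 in R 4.3.3 (intensity trend, 1 mean per group, all libraries, 7 residual degrees of freedom) on genes with a value of at least 1 in 3 libraries, which all 12086 met, with Benjamini-Hochberg adjustment at 0.05. Alternatives were edgeR 4.0.16 and DESeq2 1.42.0 on recovered reads, other pseudocounts, filters and scalings, and fits without 1 library or without OC.0 or OC.1 together with CO.1. A constant prior variance was chosen after seeing the data. The members and gene lists were chosen with earlier results of these data known. All members are named, with every list gene past the threshold and otherwise the 2 of smallest unadjusted p between 2 groups; genes outside this rule are marked as such or are cell markers. The test had been planned for CPM in 12 samples. Intervals cover the fitted spread only.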

Additional observations from a re-analysis of the deposited data

How the results depend on the processing

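The averaged Apoa5 difference kept its direction under all 22 alternatives (-0.53 to -0.46). These include 2 fits that leave 1 library in CO, without OC.0 and CO.1 and without OC.1 and CO.1. The call was lost under quantile scaling (limma adjusted p = 0.0525), which keeps all 11 libraries, and in some fits with fewer libraries. The cause of these losses was not tested. The number of members called ranged from 0 to 1 over the 11 fits that left out 1 library. edgeR, DESeq2, other pseudocounts, filters, median-of-ratios scaling and the constant prior kept it at 1. DESeq2 raised the members called from 0 to 1 in CO against CC and in OO against OC. It also called more genes than limma: 456 against 216 in CO against CC, 106 against 20 in OO against OC, 16 against 5 in OO against CO, 770 against 479 in the offspring diet average and 8 against 4 in the dam diet average. CO against CC called 108 genes under the constant prior, 92 with those groups alone, 23 without CC.0, 19 without CC.2, 29 without CO.1, 124 without OC.2, and 17 and 14 without the pairs above; OO against OC called 8 to 35 over the limma alternatives. The offspring diet average called 253 genes without CC.0, 256 without CC.2, 265 without CO.1, 269 without OC.0, 310 without OO.0, 134 without OC.0 and CO.1 and 250 without OC.1 and CO.1.

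Of 786 gene values recomputed over 35 results, 7 reversed, all of Apoa4. Its CO against CC difference was -0.044 without OC.0 and CO.1, -0.044 without OC.1 and CO.1, and -0.044 to 1.75 when 1 library was left out, turning only without CO.1. Its dam diet average was 0.19 and 0.049 without those pairs and -0.89 to 0.0048 when 1 library was left out, turning only without CO.1. Its interaction was -0.077 to 1.72, turning only without CO.0. In 163 other gene values the side of the threshold changed. No paired analysis was possible because the library numbers pair nothing across groups.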
